A study of Homo sapiens with 12 samples.

Results

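Mitochondrial DNA of human cells carries 13 protein-coding genes, and their expression depends on proteins made from nuclear genes. The 34 genes described here were chosen by symbol as a gene module: the 13 coding genes of mitochondrial DNA and 21 nuclear genes for factors that transcribe, copy, stabilise or process it and its RNA. They are 34 of the 56337 distinct gene entries in the deposited table. All 34 had a mean of at least 1 FPKM (fragments per kilobase of transcript, scaled to the depth of the library) and so were among the 13682 genes tested. The samples were wild-type HEK293T cells, an immortal line from human embryonic kidney with the large T antigen of SV40, grown in RPMI medium with 10% serum. A preincubation of 24 h, with ferric ammonium citrate (FAC) at 0.1 mg/ml as an iron source in 2 of the groups, was followed by 24 h of treatment, in which bafilomycin A1 (BafA1), which blocks the proton pump of lysosomes, was given at 10 nM in 2 of the groups. This gave 4 groups of 3 libraries each: FAC+BafA1, BafA1 alone, FAC alone and control with neither agent. The series title places iron supply at the centre of what lysosomal acidity does for proliferating cells, so the comparisons asked what BafA1 did to these genes and whether FAC altered it.

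Both strands of mitochondrial DNA are transcribed into long precursors by the polymerase POLRMT with TFAM and TFB2M, and the tRNAs that lie between most of the coding genes are cut out to release the mRNAs. The mRNAs are then bound by LRPPRC and SLIRP, tailed by MTPAP and degraded by PNPT1 with SUPV3L1, while proteins of the FASTK family act on single transcripts. The encoded proteins are core subunits of respiratory complexes I, III and IV and of ATP synthase, which are joined by subunits of nuclear origin, and HEK293 lines are widely used to study this system.

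The libraries were made from polyadenylated RNA, with an estimated 34.5 to 38.0 M sequenced fragments in each (M stands for mega). Summed FPKM was lowest in BafA1, at 600261 to 604483, against 637374 to 649406 in control, so a given level is a larger share of the total in BafA1. Across genes the correlation of log2 values between libraries was 0.993 to 0.995 within groups and 0.873 to 0.991 between groups. The libraries with and without FAC differed in how entries were filled. Genes at 0 on 1 side and at 1 FPKM or more on the other numbered 627. None of the 34 genes was among them, but a difference in processing could also reach genes filled on both sides. In FAC against control, FAC+BafA1 against BafA1 and FAC+BafA1 against control, such a difference cannot be told apart from FAC. The shares over all genes in these comparisons may include some of the 627. Of 10 markers of the kidney line 8 reached a mean of 1 FPKM, and PAX2 and LHX1 did not. Of 8 keratinocyte or HeLa markers none did (their sum was at most 1.34 FPKM in any library, and KRT6A and DSG3 were at 0 in all), and of 8 fibroblast markers COL1A1 did with COL1A2 at 0. The summed level of the kidney line markers was 888 to 894 FPKM in BafA1 and 499 to 506 FPKM in control, mostly through VIM, and its part in the results below was not tested. Replicates are numbered in the labels without a statement that they were separate cultures, so each p-value measures a spread between libraries that may be technical.

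The coding genes lie close together on the mitochondrial chromosome, most of them with tRNA genes between, and some share bases or lack a full stop codon, which bears on how their levels can be read. In the GRCh38 reference sequence MT-ATP8 (chrM:8366-8572) and MT-ATP6 (chrM:8527-9207) overlap by 46 bases and are known to be carried on 1 mRNA, and MT-ND4L (chrM:10470-10766) and MT-ND4 (chrM:10760-12137) overlap by 7 bases and likewise share 1 mRNA. Both overlaps are printed 5′ to 3′ on the heavy-strand transcript's sense with the shared bases in capitals, the first at chrM:8517-8582 and the second at chrM:10750-10776.
MT-ATP8 and MT-ATP6: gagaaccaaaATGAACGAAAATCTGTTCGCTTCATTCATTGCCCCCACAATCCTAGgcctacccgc
MT-ND4L and MT-ND4: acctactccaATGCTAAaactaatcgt
Fragments from these stretches could be assigned to either gene of a pair, so the levels within a pair are not independent.

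In 6 of the 13 coding genes the annotated gene ends before the stop codon is complete. There the poly(A) tail supplies the missing A residues, which ties tailing to the reading frame of these mRNAs. MT-ND1 ends in TA, and MT-ND2, MT-ND3, MT-ND4, MT-CYB and MT-CO3 end in T. MT-ATP6 is annotated with a full TAA, but its last base, chrM:9207, is also annotated as the first base of MT-CO3. The ends of the genes that differed most between BafA1 and control in level or in share of the coding sum are printed with the stop letters in capitals, beside MT-ND6, the only coding gene on the other strand.
MT-ND1, chrM:4243-4262: agcattccccctcaaaccTA
MT-CYB, chrM:15869-15887: aaaatactcaaatgggccT
MT-CO2, chrM:8249-8269: gggcccgtatttaccctaTAG
MT-CO1, chrM:7425-7445: cccgtatacataaaatctAGA
MT-ND6, chrM:14149-14169, reverse strand: gagattgctcgggggaatAGG
MT-CO1 and MT-ND6 are annotated with AGA and AGG as their last triplets, and MT-CO2 with a full TAG.

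With BafA1 the coding genes of mitochondrial DNA were higher than in control. All 13 had a higher mean, by 1.20-fold (MT-ND6) to 1.58-fold (MT-CO2) in FPKM, with a median of 1.32-fold. In limma's test across all genes with Benjamini-Hochberg adjustment, 8 of the 13 rose and none fell, where 67.1% of all tested genes were called in this comparison, 29.5% higher and 37.6% lower. The median log2 change of the 13 was 0.40, and that of all genes tested was -0.04. The libraries were made from polyadenylated RNA, so the level and the tailing of these transcripts cannot be told apart. FPKM is scaled within each library, so neither a change in RNA per cell nor one in the number of cells can be read from it. Where libraries of a gene are said below to overlap or not, this describes that gene only. The share of all tested genes without overlap was not counted in any comparison.

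MT-CO2 (chrM:7586-8269), which encodes subunit 2 of cytochrome c oxidase, the last complex of the respiratory chain, had 2997, 2560 and 3142 FPKM in BafA1, against 1565, 1717 and 2236 FPKM in control. All 3 BafA1 libraries lay above all 3 control libraries, and the log2 change was 0.67 ± 0.14 (limma SE, adjusted p = 0.00085). The other subunit genes of that complex moved less. MT-CO3 had 1740, 1414 and 1700 FPKM in BafA1, against 1110, 1220 and 1524 FPKM in control, and its rise of 0.34 on the log2 scale (adjusted p = 0.040) came with overlapping libraries. MT-CO1, the catalytic subunit, had 1709, 1312 and 1644 FPKM in BafA1, against 1090, 1211 and 1485 FPKM in control, a log2 change of 0.30 that did not pass (adjusted p = 0.090). The MT-CO3 call was lost without control replicate 1 or 2, BafA1 replicate 1 or 3, or FAC+BafA1 replicate 2 (adjusted p = 0.159, 0.105, 0.124, 0.111 and 0.0508). It was also lost with the replicate number as a block (adjusted p = 0.0559), with no intensity trend (0.0577), with only BafA1 and control fitted (0.0892) and with no filter on low values (0.12). MT-CO1 passed without control replicate 3 or BafA1 replicate 2 (adjusted p = 0.029 and 0.032) and with median-of-ratios, quantile and nuclear-only scaling (0.0406, 0.0225 and 0.0302).

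Among the 7 subunit genes of complex I, the NADH dehydrogenase at the start of the chain, 5 rose. MT-ND1 (chrM:3307-4262), a membrane subunit near the quinone site, had 726.6, 563.8 and 697.5 FPKM in BafA1, against 368.0, 402.8 and 511.4 FPKM in control (log2 change 0.64 ± 0.15, adjusted p = 0.0023), with no overlap. MT-ND2, a membrane subunit, had 1091, 936 and 1187 FPKM in BafA1, against 643, 692 and 879 FPKM in control (0.54 ± 0.12, adjusted p = 0.0015), again with no overlap. MT-ND3, also a membrane subunit, had 958, 952 and 1110 FPKM in BafA1, against 730, 750 and 800 FPKM in control. Its libraries were the tightest of the 13 within the control group, and its rise of 0.40 ± 0.06 had the smallest adjusted p of the coding genes (8.2e-05).

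MT-ND4L rose by 0.44 (adjusted p = 0.0085), with 796 to 1010 FPKM in BafA1 and 620 to 774 FPKM in control. MT-ND4 rose by 0.51 (adjusted p = 0.015), but its BafA1 replicate 2 at 1173 FPKM lay just under control replicate 3 at 1177 FPKM. That call was lost without control replicate 1, BafA1 replicate 1 or BafA1 replicate 3 (adjusted p = 0.0675, 0.0524 and 0.0521), or when low genes were kept in the fit (0.0553). MT-ND5 (358 to 458 FPKM in BafA1 and 296 to 414 FPKM in control) and MT-ND6 (315.5 to 391.7 FPKM in BafA1 and 246 to 368 FPKM in control) each had a log2 change of 0.28 and did not pass (adjusted p = 0.13 and 0.14), and their libraries overlapped. Both passed without control replicate 3 (adjusted p = 0.0344 and 0.0263).

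MT-CYB (chrM:14747-15887), cytochrome b and the only complex III subunit of mitochondrial DNA, had 922, 716 and 907 FPKM in BafA1, against 490, 548 and 683 FPKM in control. The groups did not overlap and the log2 change was 0.57 (adjusted p = 0.0055). The genes of ATP synthase, MT-ATP6 and MT-ATP8, had log2 changes of 0.39 and 0.27 and did not pass (adjusted p = 0.054 and 0.094). MT-ATP6 had 2394, 1836 and 2489 FPKM in BafA1, against 1455, 1609 and 2095 FPKM in control, so that BafA1 replicate 2 lay inside the control range. It passed without any 1 of 5 libraries, control replicate 3 (adjusted p = 0.013), BafA1 replicate 2 (0.0173), FAC replicate 1 (0.0455), FAC+BafA1 replicate 1 (0.0473) or FAC+BafA1 replicate 3 (0.0458), and MT-ATP8 without control replicate 3 (0.0353) or BafA1 replicate 2 (0.0139). Both passed with median-of-ratios, quantile and nuclear-only scaling, and MT-ATP6 also with a filter at a mean of 5 FPKM (adjusted p = 0.0414).

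**Figure D1:**
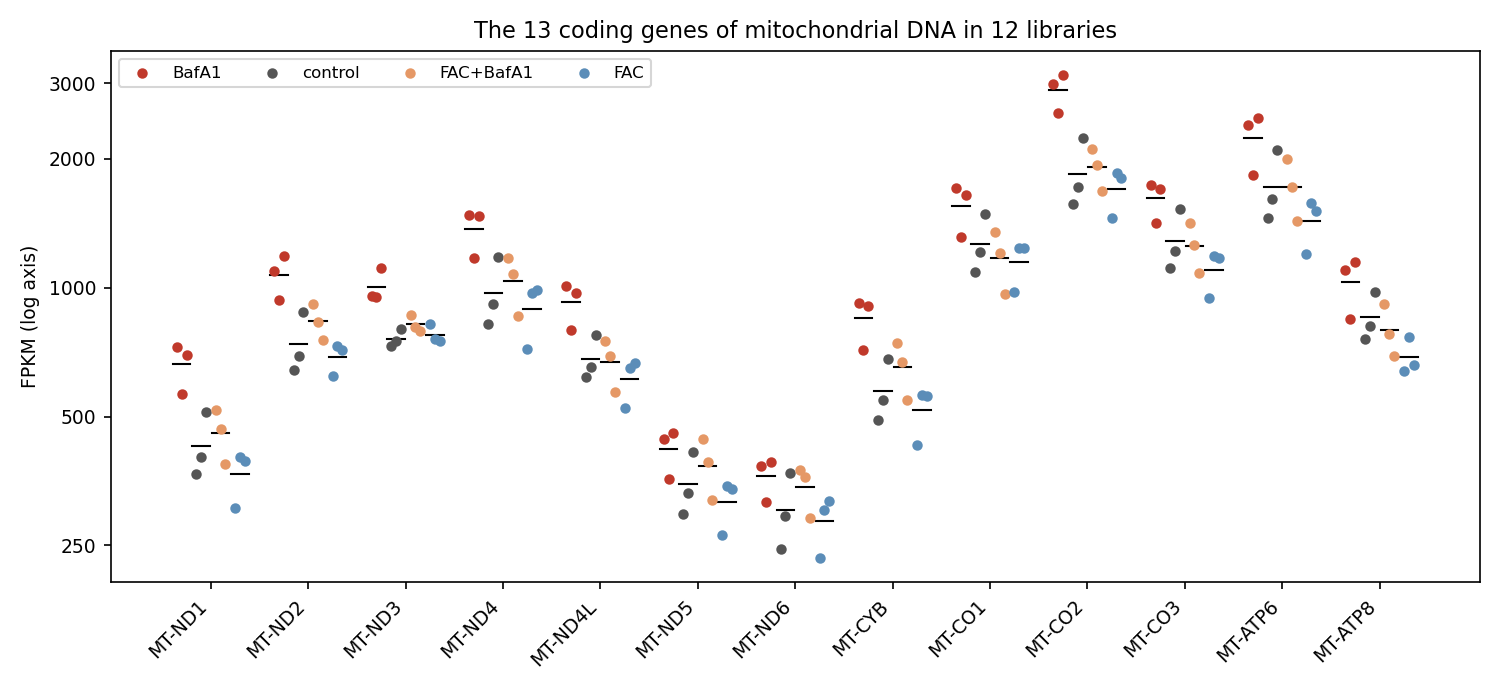
FPKM on a log axis of each coding gene of mitochondrial DNA in each of 12 libraries, coloured by group, with a bar at each group's mean. The BafA1 mean is the highest of the 4 for all 13 genes, and MT-CO2 in BafA1 (2560 to 3142 FPKM) stands above every other value in the plot.

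The coding genes moved largely as a block between libraries of 1 group. Control replicate 3 was the highest control library for 13 of 13 coding genes and control replicate 1 the lowest for 13 of 13, BafA1 replicate 2 was the lowest BafA1 library for 13 of 13, and FAC+BafA1 replicate 1 was the highest and replicate 3 the lowest of their group for 13 of 13. The highest BafA1 library was replicate 1 for 6 genes and replicate 3 for 7. In FAC, replicate 1 was the lowest for 12 genes and the highest for MT-ND3, and replicate 2 was the highest for 8. The median coefficient of variation of the coding genes was 12.6% in BafA1 and 17.3% in control, and that of the 21 nuclear factors in the same libraries was 4.39% in BafA1 and 3.97% in control. Leaving out control replicate 3 brought the count of coding genes that rose to 13, and leaving out each other library gave counts of 6 to 11. The count was also 13 with quantile normalization and with libraries scaled on nuclear genes alone. That nuclear-only scaling sets the summed FPKM of genes outside mitochondrial DNA equal across libraries. It thus also acts on the difference in summed FPKM between groups, which was lowest in BafA1. Which of these moved the calls was not tested.

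As a share of all FPKM, the 13 coding genes held 2.81%, 2.28% and 2.89% in BafA1, against 1.57%, 1.72% and 2.18% in control. The lowest BafA1 library was above the highest control library, and the means were 2.66 ± 0.33% in BafA1 and 1.83 ± 0.32% in control (SD, n = 3), a difference of 0.833 percentage points and a ratio of 1.46 (two-sided exact permutation test, p = 0.1, the smallest that 3 against 3 allows). With FAC the share was 2.14%, 1.91% and 1.63% in FAC+BafA1, against 1.41%, 1.74% and 1.74% in FAC. These groups overlapped, and their means of 1.89 ± 0.25% in FAC+BafA1 and 1.63 ± 0.19% in FAC differed by 0.264 percentage points (two-sided exact permutation test, n = 3 each, p = 0.3).

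With FAC present, BafA1 changed no coding gene past the threshold. In FAC+BafA1 against FAC, limma called 0 of the 13 coding genes, where 19.3% of all tested genes were called, 9.76% higher and 9.49% lower. At an unadjusted p under 0.05 there were 2 coding genes, both higher, and the share of all tested genes there was not counted. The means were still higher for all 13, by 1.02-fold (MT-CO1) to 1.27-fold (MT-CYB), and the median log2 change was 0.22 against 0.00 over all genes tested. MT-CO2 had 2109, 1938 and 1682 FPKM in FAC+BafA1, against 1454, 1856 and 1803 FPKM in FAC, a log2 change of 0.17 (adjusted p = 0.44) with overlapping libraries. MT-CYB had 744.6, 670.5 and 547.8 FPKM in FAC+BafA1, against 428.2, 562.5 and 559.4 FPKM in FAC (0.34, adjusted p = 0.14), also overlapping. MT-ND2, at 754 to 917 FPKM in FAC+BafA1 and 621 to 732 FPKM in FAC, had a log2 change of 0.27 (adjusted p = 0.13). It was the only coding gene whose libraries did not overlap between these groups, and the share of all tested genes without overlap was not counted.

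The test of the difference itself, the interaction (the log2 change of BafA1 in cells with FAC less that in cells without it), passed for 2 of the 13 coding genes, both negative, where 50.1% of all tested genes were called, 29.5% positive and 20.6% negative. MT-ND3 had an interaction of -0.32 ± 0.09 (adjusted p = 0.0083). MT-CO2 had -0.50 ± 0.19 (adjusted p = 0.046), and this call was lost without any 1 of 8 libraries: control replicate 1 or 2, BafA1 replicate 1 or 3, FAC replicate 2 or 3, and FAC+BafA1 replicate 2 or 3 (adjusted p of 0.0691 to 0.11). It was also lost with the replicate number as a block (adjusted p = 0.0567), with a pseudocount of 0.1 (0.0517), with no intensity trend (0.0665) and with no filter on low values (0.147). For MT-ND2, at -0.27, the interaction passed only without control replicate 3 (adjusted p = 0.0367) and under quantile normalization (0.0412). The remaining coding genes had differences that did not pass, which does not show that FAC left their BafA1 change the same.

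Set directly against BafA1 alone, FAC+BafA1 had lower means for all 13 coding genes. Limma called 10 of them lower and none higher, with a median log2 change of -0.38 against 0.06 over all genes, where 67.9% of all tested genes were called, 38.8% higher and 29.1% lower. MT-CO2 fell by 0.60 on the log2 scale (adjusted p = 0.0018), MT-ND1 by 0.54 (0.0068), MT-ND4L by 0.46 (0.0061) and MT-ND3 by 0.29 (0.0011). The 3 that did not pass were MT-ATP6 (-0.38, adjusted p = 0.055), MT-ND5 (-0.13) and MT-ND6 (-0.09). The count was 5 without BafA1 replicate 1, 4 without BafA1 replicate 3, 6 without FAC+BafA1 replicate 2, 4 without FAC+BafA1 replicate 3 and 4 with no filter on low values. FAC+BafA1 against control, which shares its control with the BafA1 comparison, gave 0 called coding genes, where 32.9% of tested genes were called, 16.2% higher and 16.6% lower. None passed at an unadjusted p under 0.05 either, a threshold at which all tested genes were not counted. MT-CO2 was at 0.06 (adjusted p = 0.76). Without control replicate 3, 1 coding gene was called in FAC+BafA1 against control. In both comparisons of this paragraph the groups also differed in how entries were filled, which cannot be told apart from FAC.

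FAC alone, set against control, had a lower mean for 12 of the 13 coding genes. MT-ND3, at 1.02-fold, was the exception. Limma called none of the 13 and none of the 21 nuclear factors, where 9.56% of tested genes were called, 4.72% higher and 4.84% lower. At an unadjusted p under 0.05 there was 1 coding gene and 1 nuclear factor, both lower, without a count over all tested genes. The median log2 change was -0.13 for the coding genes and -0.02 for the nuclear factors, with 0.00 over all genes to this precision. All 13 coding genes overlapped between these groups, and the share of all tested genes that did so was not counted. The groups also differed in how entries were filled, which cannot be told apart from FAC. The shares of all tested genes given here may include some of the 627 entries filled on 1 side only. Their number among the calls was not counted.

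Within the sum of the 13 coding genes the shares differed between BafA1 and control. MT-CO2 made up 17.7%, 18.6% and 18.1% of the sum in BafA1, against 15.3%, 15.4% and 16.1% in control, a mean difference of 2.54 percentage points. MT-ND1 (4.14% in BafA1 and 3.63% in control), MT-ND2, MT-ND4 and MT-CYB (5.29% in BafA1 and 4.87% in control) also took a larger share in every BafA1 library than in any control library. The shares of MT-CO1 (9.70% in BafA1 and 10.7% in control), MT-CO3 (10.1% in BafA1 and 10.9% in control), MT-ATP8 (6.42% in BafA1 and 7.27% in control), MT-ND5 (2.62% in BafA1 and 2.95% in control) and MT-ND6 (2.27% in BafA1 and 2.56% in control) were smaller in every BafA1 library than in any control library. MT-ND3, MT-ND4L and MT-ATP6 overlapped. These shares add up to a fixed total, so they are not independent, and they were not tested one by one. They too are shares of the RNA that passed poly(A) selection.

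The MT-CO2 share was 15.9 ± 0.337% in FAC+BafA1 and 16.2 ± 0.225% in FAC (SD, n = 3), and these groups overlapped. MT-CO1 had a share of 9.70 ± 0.342% in FAC+BafA1 and 10.9 ± 0.223% in FAC with no overlap, a difference of -1.20 percentage points beside -1.03 for BafA1 against control. MT-CYB (5.42% in FAC+BafA1 and 4.89% in FAC) and MT-ND1 (3.79% in FAC+BafA1 and 3.48% in FAC) were again above, MT-ND5 was above, at 3.18% in FAC+BafA1 and 2.99% in FAC, and MT-ND4L was below. For MT-CO1, MT-CYB and MT-ND1 the shares therefore lay on the same side in both pairs of groups, while those of MT-CO2 and MT-ND5 did not. MT-ND6, read from the other strand, amounted to 2.32% of the 12 other coding genes in BafA1, 2.63% in control, 2.93% in FAC+BafA1 and 2.77% in FAC. Whether fragments were assigned by strand is not given in the sources used here, so MT-ND6 mRNA and other RNA from either strand at its position cannot be told apart.

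**Figure D2:**
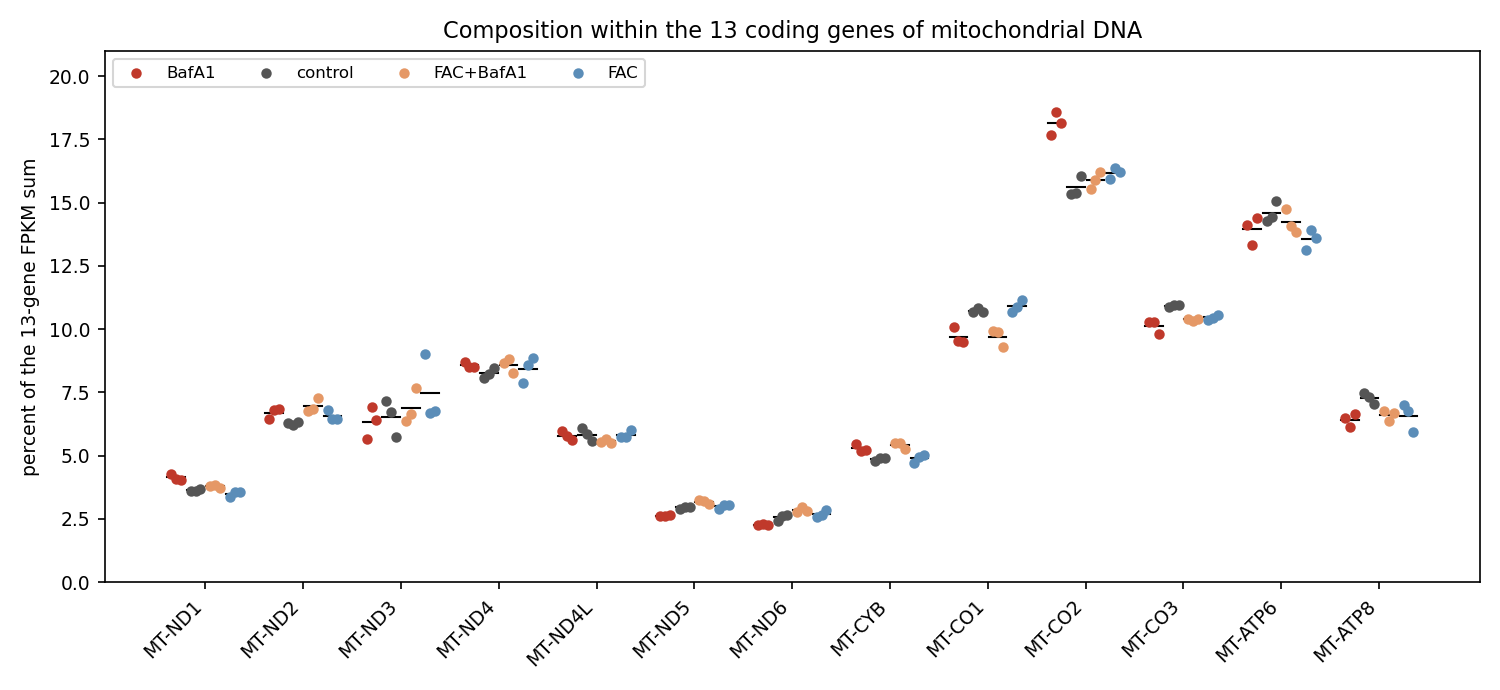
Share of each coding gene in the summed FPKM of the 13, in percent, for each of 12 libraries, with a bar at each group's mean. The MT-CO2 share is set apart in BafA1 (17.7% to 18.6%) from the 9 other libraries (15.3% to 16.4%), while the MT-CO1 share is lower in both groups with BafA1.

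The rRNAs of mitochondrial DNA, which are no members of the module, both rose with BafA1. MT-RNR2 (16S rRNA, chrM:1671-3229) had 975, 891 and 1029 FPKM in BafA1, against 371, 372 and 427 FPKM in control. All BafA1 libraries were above all control libraries, with a log2 change of 1.31 ± 0.08 (adjusted p = 2.85e-08). MT-RNR1 (12S rRNA, chrM:648-1601) had 209 ± 18.9 FPKM in BafA1 and 133 ± 10.1 FPKM in control (SD, n = 3; log2 change 0.64 ± 0.08, adjusted p = 9.89e-06). With FAC neither changed past the threshold: MT-RNR2 had 402 ± 35.5 FPKM in FAC+BafA1 and 371 ± 26.8 FPKM in FAC (0.11, adjusted p = 0.35), and MT-RNR1 had 117 FPKM in each. The interaction was -1.19 ± 0.11 for MT-RNR2 (adjusted p = 4.51e-06) and -0.65 ± 0.11 for MT-RNR1 (adjusted p = 0.00035).

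Relative to the coding sum, MT-RNR2 stood at 6.06 ± 0.373% in BafA1, 3.34 ± 0.286% in control, 3.35 ± 0.155% in FAC+BafA1 and 3.53 ± 0.207% in FAC (SD, n = 3 each). The lowest BafA1 library (5.75%) was above the highest of the 9 others (3.74%). The libraries were made by selecting poly(A) RNA, so these values reflect the rRNA that passed that selection, and rRNA level and rRNA tailing cannot be told apart in them. The 22 tRNA genes of mitochondrial DNA were listed at 0 in every library. Nuclear copies of mitochondrial DNA could take fragments from some genes: MTATP6P1 on chromosome 1, 98.5% identical to MT-ATP6, stood at 12.4% to 12.7% of the MT-ATP6 level in the 4 group means, and MTND2P28, 98.2% identical to MT-ND2, at 3.34% to 3.43% of MT-ND2. Adding them to their parent genes changed no call.

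**Figure D3:**
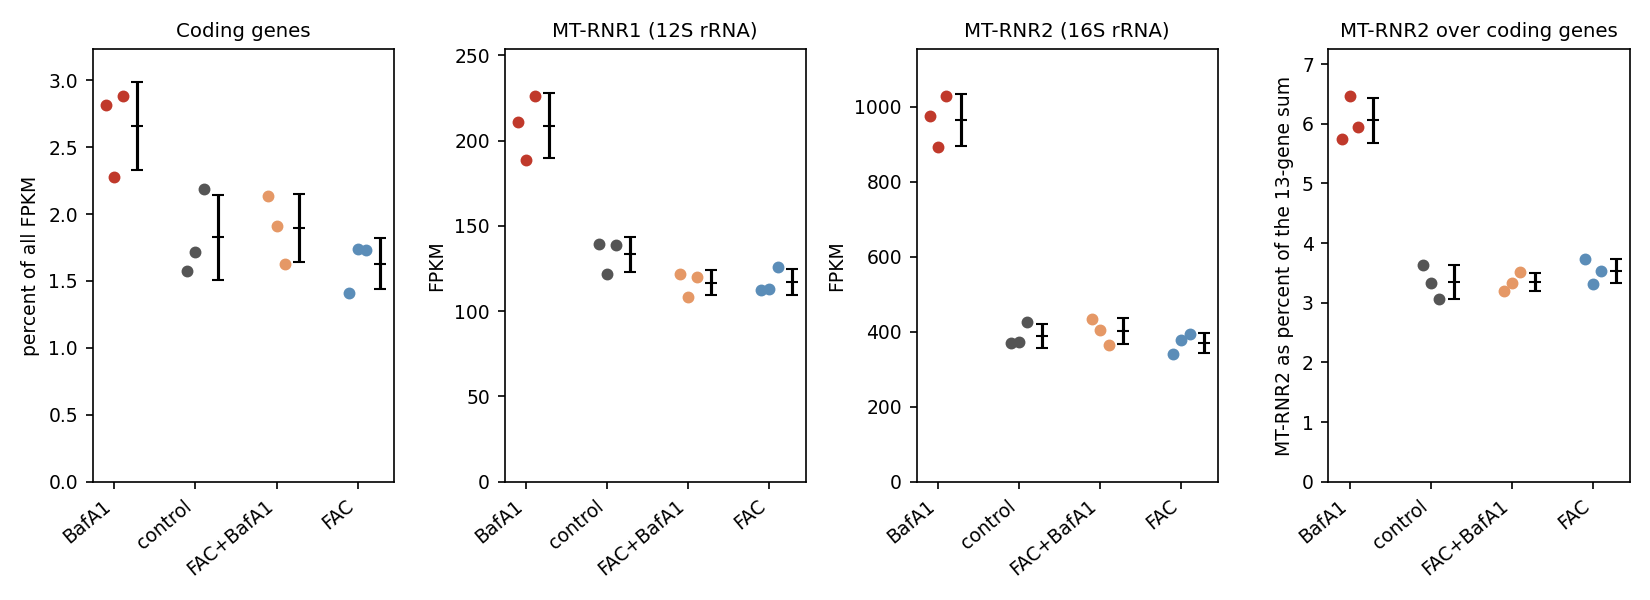
From left to right, the share of the 13 coding genes in all FPKM (percent), MT-RNR1 and MT-RNR2 (FPKM), and MT-RNR2 as percent of the coding sum, with 1 point per library and the mean and SD of each group beside it (n = 3). In all 4 panels each BafA1 library lies above the 9 others, from a lowest BafA1 value of 2.28% of all FPKM in the first panel to 5.75% of the coding sum in the last.

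The 21 nuclear factors did not follow the coding genes as a group. With BafA1, 5 rose, 12 fell and 4 did not pass, beside the 29.5% higher and 37.6% lower given above for all tested genes, and the median log2 change was -0.16 against -0.04 over all genes. The balance of these calls depended on the scaling: 7 rose and 11 fell with libraries scaled by the median of ratios, and 8 rose and 7 fell with libraries scaled on nuclear genes alone, where the share of higher genes among all called genes was 55.0% in place of 44%. With FAC present, 0 rose and 6 fell in FAC+BafA1 against FAC in limma's test (9.76% and 9.49% of all tested genes). The median was -0.10 against 0.00. At an unadjusted p under 0.05, 0 were higher and 13 lower. The share of all tested genes at that unadjusted threshold was not counted, so these 2 numbers have no baseline. The 6 calls became 3 with nuclear-only scaling. The interaction passed for 12 of the 21, 6 positive and 6 negative, where the shares over all genes were 29.5% and 20.6%, and became 4 positive and 7 negative with median-of-ratios scaling and 3 positive and 7 negative with nuclear-only scaling.

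**Figure D4:**
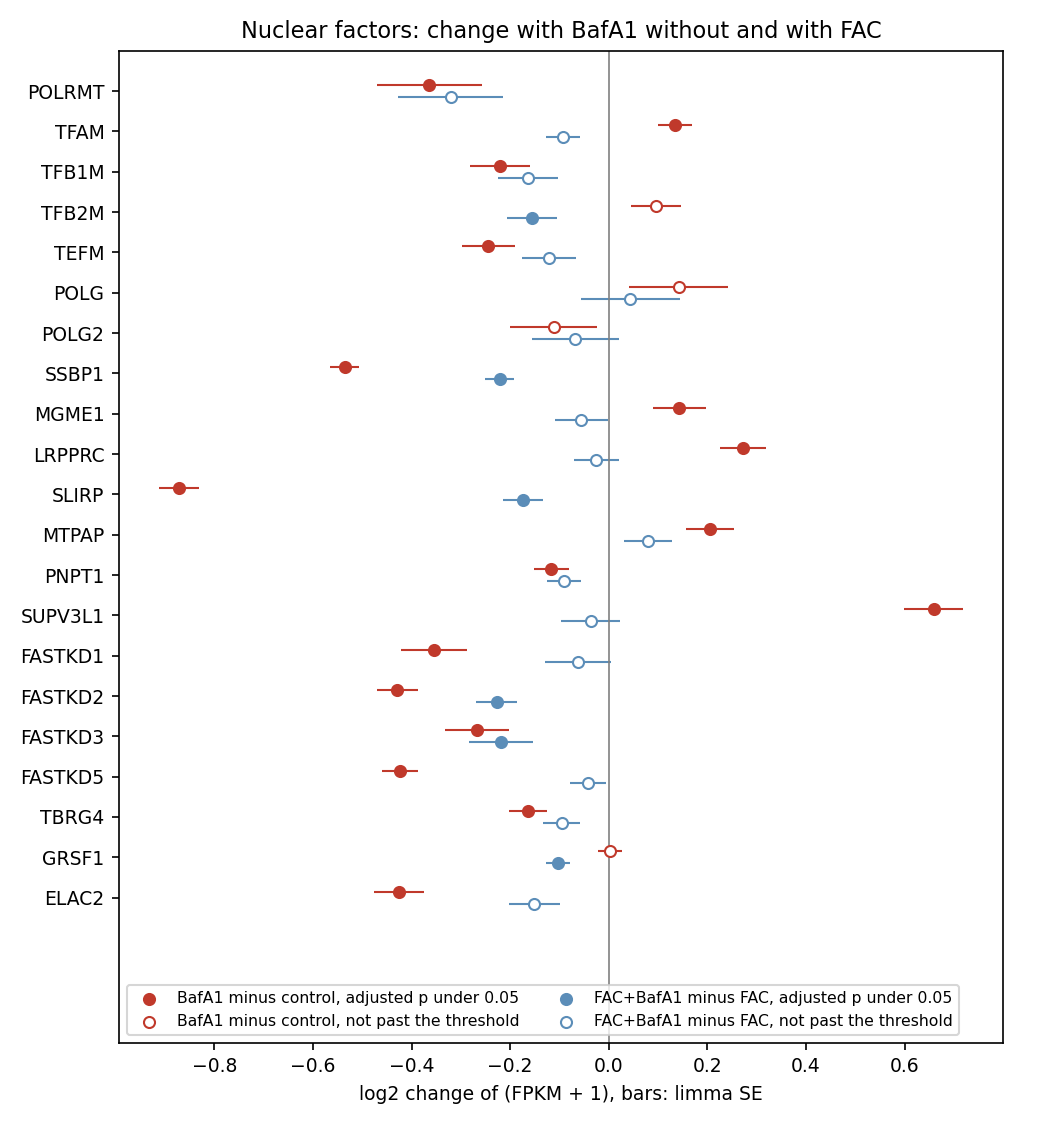
Log2 change of (FPKM + 1) for each nuclear factor, in role order from the top, in BafA1 against control (red) and FAC+BafA1 against FAC (blue), with bars of 1 limma standard error and filled points for an adjusted p under 0.05. SLIRP (-0.87) and SUPV3L1 (0.66) lie farthest from 0 without FAC, and no blue point to the right of 0 is filled.

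Among the genes of the transcription machinery, POLRMT (chr19:617221-633537), the RNA polymerase of mitochondria, had 33.2, 27.1 and 23.1 FPKM in BafA1, against 34.6, 34.1 and 38.4 FPKM in control. It fell by 0.36 on the log2 scale (adjusted p = 0.0095) with no overlap, and its spread within BafA1 was wide. The call was lost when only these groups were fitted (adjusted p = 0.0588) and when libraries were scaled on nuclear genes (0.0516). In FAC+BafA1 it had 31.0, 31.5 and 36.9 FPKM, against 41.4, 43.7 and 39.5 FPKM in FAC, a log2 change of -0.32 that did not pass (adjusted p = 0.056), although the groups did not overlap. It passed there without BafA1 replicate 1 (adjusted p = 0.016), BafA1 replicate 3 (0.0242) or FAC+BafA1 replicate 3 (0.0399), with a filter at a mean of 5 FPKM (0.0398), with median-of-ratios scaling (0.0488) and with these groups fitted alone (0.0486).

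TFAM (chr10:58385345-58399220), which packages mitochondrial DNA and opens its promoters, had 91.2, 97.1 and 98.0 FPKM in BafA1, against 88.2, 88.0 and 84.4 FPKM in control, a rise of 0.13 ± 0.03 (adjusted p = 0.0037) with no overlap. In FAC+BafA1 it had 84.9, 84.6 and 82.3 FPKM, against 90.2, 87.4 and 91.1 FPKM in FAC, which lay below without overlap but did not pass (-0.09, adjusted p = 0.076), and it passed without BafA1 replicate 1 (adjusted p = 0.0472). The interaction was -0.23 (adjusted p = 0.0019). TFB2M, the promoter-melting partner of POLRMT, did not pass in BafA1 against control (0.10, adjusted p = 0.11), but passed as higher with median-of-ratios and nuclear-only scaling (adjusted p = 0.0199 and 0.00365). In FAC+BafA1 it had 14.8, 13.4 and 14.4 FPKM, against 16.3, 15.3 and 16.1 FPKM in FAC, a fall of 0.16 at the edge of the threshold (adjusted p = 0.050) that was lost without any 1 library other than BafA1 replicates 2 and 3 (adjusted p of 0.053 to 0.175). It was also lost with the replicate number as a block (adjusted p = 0.0765), with no intensity trend (0.0548), with these groups fitted alone (0.0938), with no filter on low values (0.0942) and with median-of-ratios and nuclear-only scaling (0.0539 and 0.0977). Its interaction was -0.25 (adjusted p = 0.011). TFB1M, a methyltransferase of 12S rRNA, and TEFM, the elongation factor, fell with BafA1 by 0.22 and 0.24 (adjusted p = 0.0069 and 0.0016) without overlap, and neither passed in FAC+BafA1 against FAC (-0.16, adjusted p = 0.082, and -0.12, adjusted p = 0.14). TFB1M lost its call with nuclear-only scaling (adjusted p = 0.109), and with the replicate number as a block it passed in FAC+BafA1 against FAC (0.0296).

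The upstream sequences of 20 of the 21 nuclear factors were in the RefSeq promoter table (GRCh38.p14, 250 bases before to 50 after the annotated start). They were searched on both strands for motifs of regulators known for genes of mitochondria. The NRF1 motif (GCGCA, any base, then GCGC) matched in 4 of 20, POLRMT, TFAM, TFB1M and POLG2, and in 5.78% of all 35116 promoters of the table. GABP (CCGGAAGT) matched in 4 of 20, POLRMT, TEFM, SSBP1 and ELAC2, and in 4.14% of all. YY1 (AANATGGCG) matched in SLIRP only, and in 3.19% of all. The amino acid response motif of ATF4 (TGATGNAAT) matched in none of the 20 and in 0.991% of all. The letters were chosen after the values were seen, a match is only a match of letters, and genes that rose and genes that fell are among the matches. The promoters of POLRMT, TFAM, SSBP1 and SLIRP are printed 5′ to 3′ on the gene's strand with the matches in capitals, since they hold all 3 motifs found and belong to the polymerase, its main partner and the 2 nuclear factors of highest level. In POLRMT a pair of overlapping NRF1 matches forms the second run of capitals and the GABP match, on the opposite strand, the first.
POLRMT, chr19:633488-633787, reverse strand: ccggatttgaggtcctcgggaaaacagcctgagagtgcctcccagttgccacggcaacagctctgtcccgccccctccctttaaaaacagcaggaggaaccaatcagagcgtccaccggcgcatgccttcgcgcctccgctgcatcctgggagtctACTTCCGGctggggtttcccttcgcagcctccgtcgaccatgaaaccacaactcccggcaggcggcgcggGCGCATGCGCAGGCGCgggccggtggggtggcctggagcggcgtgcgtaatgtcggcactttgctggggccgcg
TFAM, chr10:58385160-58385459, forward strand: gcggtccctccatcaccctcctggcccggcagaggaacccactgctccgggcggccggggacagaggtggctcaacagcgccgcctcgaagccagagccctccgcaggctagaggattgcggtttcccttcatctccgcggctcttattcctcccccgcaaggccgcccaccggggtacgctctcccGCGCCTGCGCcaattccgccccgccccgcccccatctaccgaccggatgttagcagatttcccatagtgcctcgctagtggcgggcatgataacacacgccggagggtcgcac
SSBP1, chr7:141738071-141738370, forward strand: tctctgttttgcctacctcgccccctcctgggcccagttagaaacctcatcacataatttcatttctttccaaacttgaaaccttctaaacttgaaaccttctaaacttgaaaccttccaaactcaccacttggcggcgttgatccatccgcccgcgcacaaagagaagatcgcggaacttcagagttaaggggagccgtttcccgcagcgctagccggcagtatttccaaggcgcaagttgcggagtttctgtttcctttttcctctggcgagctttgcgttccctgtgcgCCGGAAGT
SLIRP, chr14:77707853-77708152, forward strand: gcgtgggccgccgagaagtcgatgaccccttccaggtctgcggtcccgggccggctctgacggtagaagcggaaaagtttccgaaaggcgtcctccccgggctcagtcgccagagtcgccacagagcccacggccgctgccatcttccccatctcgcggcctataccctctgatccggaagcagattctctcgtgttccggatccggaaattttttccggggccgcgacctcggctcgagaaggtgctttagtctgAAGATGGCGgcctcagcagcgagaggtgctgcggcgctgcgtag

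Of the 4 genes for DNA synthesis, SSBP1 (chr7:141738334-141787922), the single-stranded DNA binding protein of the mitochondrial replisome, had the highest level of the 21 nuclear factors. It had 305, 317 and 316 FPKM in BafA1, against 472, 451 and 438 FPKM in control, far apart and without overlap (-0.54 ± 0.03, adjusted p = 1.3e-08). In FAC+BafA1 it had 383, 398 and 393 FPKM, against 458, 457 and 454 FPKM in FAC (-0.22 ± 0.03, adjusted p = 0.00036). It thus fell with BafA1 in both settings, less with FAC, and the interaction was 0.31 (adjusted p = 7.1e-05). MGME1, an exonuclease that trims mitochondrial DNA ends, rose with BafA1 by 0.14 (adjusted p = 0.032), a call lost without control replicate 1 or BafA1 replicate 3 (adjusted p = 0.125 and 0.137), when low genes were kept in the fit (0.0765) and when only these groups were fitted (0.0545). POLG, the catalytic subunit of the DNA polymerase, and POLG2, its accessory subunit, did not pass (0.14, adjusted p = 0.24, and -0.11, adjusted p = 0.29), and POLG passed with nuclear-only scaling (adjusted p = 0.0427) or with BafA1 replicate 2 left out (0.0317).

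The partners LRPPRC and SLIRP, which bind mitochondrial mRNAs as a complex, moved in opposite directions. LRPPRC (chr2:43886224-43996226) had 120, 118 and 127 FPKM in BafA1, against 102, 103 and 95.8 FPKM in control, a rise of 0.27 ± 0.05 (adjusted p = 0.00022) with no overlap. SLIRP (chr14:77708071-77761104) had 146, 149 and 138 FPKM in BafA1, against 263, 276 and 257 FPKM in control, the largest fall among the 34 genes (-0.87 ± 0.04, adjusted p = 3.1e-09). Every BafA1 library of SLIRP was more than 100 FPKM under the lowest control library. SLIRP as a percentage of LRPPRC was 119 ± 9.08 in BafA1, 264 ± 6.26 in control, 217 ± 8.57 in FAC+BafA1 and 241 ± 7.17 in FAC (SD, n = 3 each).

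With FAC both partners changed less. SLIRP had 229, 227 and 210 FPKM in FAC+BafA1, against 246, 251 and 253 FPKM in FAC, still without overlap (-0.17, adjusted p = 0.011), a call lost under quantile normalization (adjusted p = 0.0922). Its interaction of 0.70 ± 0.06 was the largest positive one of the 34 genes (adjusted p = 1.6e-06). LRPPRC had 108, 99.8 and 98.5 FPKM in FAC+BafA1, against 101, 102 and 109 FPKM in FAC, and these overlapped (-0.03, adjusted p = 0.77; interaction -0.30, adjusted p = 0.0025).

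The genes of the RNA-degrading complex also diverged. SUPV3L1 (chr10:69180234-69209099), the helicase, had 77.3, 70.9 and 74.0 FPKM in BafA1, against 45.8, 45.2 and 48.7 FPKM in control, the largest rise among the nuclear factors (0.66 ± 0.06, adjusted p = 1e-06). The lowest BafA1 library was far above the highest control library. PNPT1, the polynucleotide phosphorylase that works with it, had 33.2, 33.5 and 34.5 FPKM in BafA1, against 37.2, 36.2 and 36.6 FPKM in control, a small fall (-0.12, adjusted p = 0.011) whose call did not hold when libraries were scaled by the median of ratios (adjusted p = 0.219) or on nuclear genes (0.90). With FAC, SUPV3L1 had 42.4, 49.0 and 48.1 FPKM in FAC+BafA1, against 44.4, 49.3 and 49.3 FPKM in FAC, with no separation (-0.04, adjusted p = 0.74), and its interaction was -0.69 ± 0.08 (adjusted p = 3.5e-05). PNPT1 was at -0.09 there (adjusted p = 0.095) and passed only without FAC+BafA1 replicate 1 (0.0424). MTPAP, the poly(A) polymerase, had 22.3, 23.0 and 22.7 FPKM in BafA1, against 20.0, 20.2 and 18.4 FPKM in control (0.21, adjusted p = 0.0024), without overlap, and did not pass with FAC (0.08, adjusted p = 0.28).

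**Figure D5:**
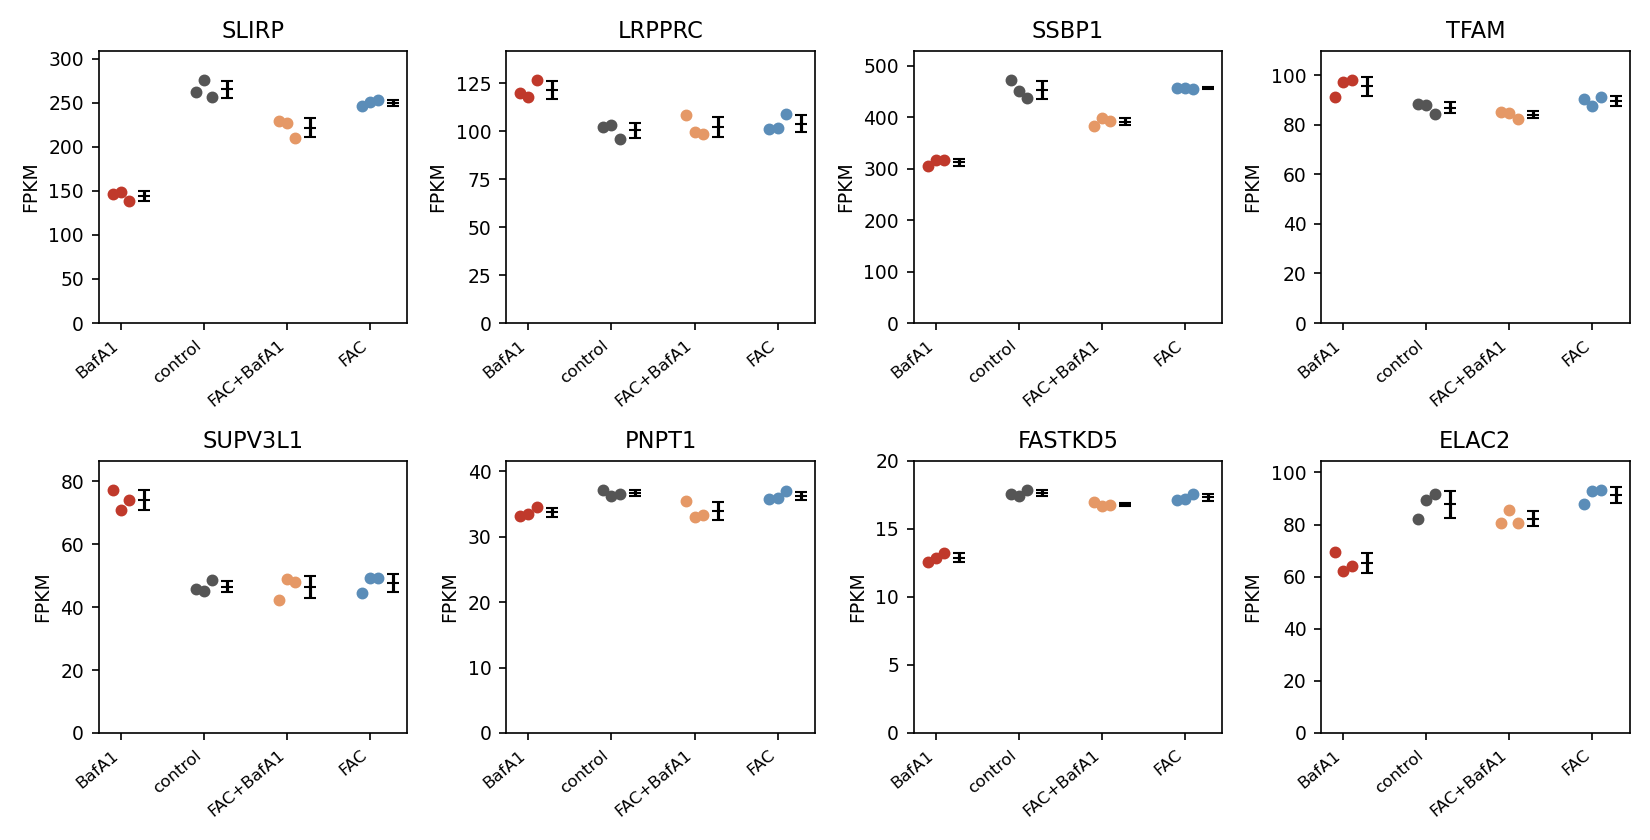
FPKM of 8 nuclear factors in each library, with the mean and SD of each group beside the points (n = 3, axes from 0). SLIRP, SSBP1, FASTKD5 and ELAC2 are lowest in BafA1, SUPV3L1 and LRPPRC highest in BafA1, and the FAC+BafA1 points lie nearer to FAC than the BafA1 points lie to control for SLIRP, SSBP1, SUPV3L1 and FASTKD5.

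Of 7 genes for RNA granule and processing proteins, 6 fell with BafA1 and none rose, where 37.6% of all tested genes were called lower and 29.5% higher. FASTKD5, which is needed to free mRNAs that no tRNA borders, had 12.6, 12.9 and 13.2 FPKM in BafA1, against 17.6, 17.4 and 17.9 FPKM in control (-0.42, adjusted p = 5.6e-07), without overlap. With FAC it had 16.9, 16.7 and 16.8 FPKM in FAC+BafA1, against 17.2, 17.2 and 17.6 FPKM in FAC (-0.04, adjusted p = 0.47; interaction 0.38, adjusted p = 7.2e-05). FASTKD2, a 16S rRNA binding protein, had 21.8, 22.8 and 20.7 FPKM in BafA1, against 30.7, 29.95 and 28.3 FPKM in control (-0.43, adjusted p = 1.8e-06), and 24.2, 24.7 and 24.8 FPKM in FAC+BafA1, against 28.8, 29.2 and 28.8 FPKM in FAC (-0.23, adjusted p = 0.0028). It was lower without overlap with BafA1 in both settings, and its interaction of 0.20 (adjusted p = 0.013) was lost with median-of-ratios and with nuclear-only scaling (adjusted p = 0.0962 and 0.0854).

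ELAC2, the nuclease that cuts the 3′ ends of tRNAs, had 69.4, 62.0 and 63.9 FPKM in BafA1, against 82.0, 89.5 and 91.8 FPKM in control (-0.43 ± 0.05, adjusted p = 1.2e-05), without overlap. In FAC+BafA1 against FAC it did not pass (-0.15, adjusted p = 0.059), although the groups did not overlap, and it passed without control replicate 1 or BafA1 replicate 1 (adjusted p = 0.0383 and 0.0394), with a filter at a mean of 5 FPKM (0.0448), with median-of-ratios scaling (0.0447) and with these groups fitted alone (0.0484). Its interaction was 0.27 (adjusted p = 0.0074), lost with nuclear-only scaling (0.0604). FASTKD1, known as a negative regulator of MT-ND3 mRNA, fell by 0.36 (adjusted p = 0.00049) with BafA1 and stood at -0.06 with FAC. Its interaction of 0.29 (adjusted p = 0.022) was lost without BafA1 replicate 2, FAC replicate 1 or FAC+BafA1 replicate 1 (adjusted p = 0.0534, 0.0525 and 0.0517), with median-of-ratios and nuclear-only scaling (0.0645 and 0.0824) and with no filter on low values (0.0619).

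FASTKD3 fell with BafA1 by 0.27 (adjusted p = 0.0030) and in FAC+BafA1 against FAC by 0.22 (adjusted p = 0.036), the second call being lost without any 1 of 5 libraries, FAC replicates 2 and 3 and all 3 of FAC+BafA1 (adjusted p of 0.0565 to 0.118), and likewise with nuclear-only scaling (0.073), when low genes were kept in the fit (0.0858) and with these groups fitted alone (0.0854). TBRG4, also called FASTKD4 and known to stabilise several of the mRNAs, fell by 0.16 (adjusted p = 0.0022) with BafA1 and did not pass with FAC (-0.10, adjusted p = 0.10). With libraries scaled on nuclear genes the BafA1 calls of FASTKD3 and TBRG4 were lost (adjusted p = 0.0537 and 0.229). GRSF1, an RNA granule protein, had 117, 120 and 118 FPKM in BafA1, against 120, 117 and 119 FPKM in control, with full overlap (0.00, adjusted p = 0.97), but passed as higher with median-of-ratios, quantile and nuclear-only scaling (adjusted p = 0.0467, 0.00319 and 0.00191). In FAC+BafA1 it had 110, 109 and 109 FPKM, against 115, 119 and 118 FPKM in FAC, a small fall without overlap (-0.10, adjusted p = 0.012) that was lost under quantile normalization and nuclear-only scaling (adjusted p = 0.0826 and 0.0626).

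Set against BafA1 alone, FAC+BafA1 had 7 nuclear factors higher and 7 lower, where 38.8% of all tested genes were called higher and 29.1% lower. With median-of-ratios scaling and with nuclear-only scaling, 4 were higher and 7 lower. The 7 higher were SLIRP (0.61, adjusted p = 4.7e-08), FASTKD5 (0.36), ELAC2 (0.33), SSBP1 (0.32), FASTKD1 (0.18), FASTKD2 (0.17) and TEFM (0.15), each of which fell with BafA1. The 7 lower were SUPV3L1 (-0.66, adjusted p = 8.7e-07), TFB2M (-0.32), LRPPRC (-0.25), MTPAP (-0.24), MGME1 (-0.20), TFAM (-0.18) and GRSF1 (-0.11). This comparison shares its BafA1 libraries with the one above, so the opposite signs are not separate evidence. It also sets libraries with FAC against libraries without it, which differed in how entries were filled. TEFM was not called here without BafA1 replicate 1, BafA1 replicate 3 or FAC+BafA1 replicate 3, nor FASTKD1 without BafA1 replicate 2, FAC+BafA1 replicate 1 or FAC+BafA1 replicate 3 (adjusted p up to 0.271 and 0.225 over all alternatives run).

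Against control, FAC+BafA1 had 9 nuclear factors lower and none higher by limma, where 16.2% of tested genes were called higher and 16.6% lower. At an unadjusted p under 0.05, 1 was higher and 10 were lower, without a count over all tested genes. SLIRP was at 229, 227 and 210 FPKM in FAC+BafA1, against 263, 276 and 257 FPKM in control (-0.26, adjusted p = 0.00035), and SSBP1 was at -0.21 (adjusted p = 0.00012). FASTKD3 (-0.31), FASTKD2 (-0.26), TFB2M (-0.22), TFB1M (-0.18), TBRG4 (-0.13), PNPT1 (-0.11) and GRSF1 (-0.11) were the others. These groups too differed in how entries were filled. SUPV3L1 was level with control, at 46.5 ± 3.57 FPKM in FAC+BafA1 and 46.6 ± 1.83 FPKM in control (SD, n = 3; adjusted p = 0.97). The TFB1M call was lost without FAC+BafA1 replicate 1 or 3 or control replicate 1 or 2 (adjusted p of 0.0696 to 0.147), the TBRG4 call without FAC+BafA1 replicate 1 or 2 or control replicate 2 or 3 (0.0634 to 0.0786), and the PNPT1 call without FAC+BafA1 replicate 2 or 3 or any control replicate (0.0588 to 0.131).

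Other genes of the same pathway were read from lists of known functions, which were chosen with earlier results of these data known. All 7 genes for mitochondrial transcription termination and related factors fell with BafA1 (median log2 change -0.40), where 37.6% of all tested genes were called lower. The call of TOP1MT, a topoisomerase, was lost in most fits that left out 1 library and did not pass with nuclear-only scaling (adjusted p = 0.748), which left 6. MRPL12, a ribosomal protein reported to bind POLRMT, was at 99.1 ± 4.21 FPKM in BafA1 and 178 ± 12.4 FPKM in control (-0.83, adjusted p = 1.94e-08), and MTERF2 was at 6.06 ± 0.620 FPKM in BafA1 and 12.4 ± 0.469 FPKM in control (-0.93, adjusted p = 1.93e-07). In FAC+BafA1 against FAC 3 of the 7 fell, MRPL12 by 0.19, MTERF2 by 0.27 and MTERF3 by 0.26, where 9.49% of all tested genes were called lower. MTERF3 alone passed without FAC replicate 1 or 2, MRPL12 did not pass without FAC+BafA1 replicate 2 either (adjusted p = 0.0746), nor MTERF2 without FAC+BafA1 replicate 3 (0.0792). The interaction was positive for 4 of the 7 (29.5% of all tested genes), and MTERF3 (0.04, adjusted p = 0.68) was not one of them. That count was 2 with median-of-ratios and nuclear-only scaling and without BafA1 replicate 2, FAC+BafA1 replicate 1 or 3 or control replicate 1.

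Of 22 genes for mitochondrial tRNA processing and modification, 12 fell and 7 rose with BafA1 (median -0.15), where 37.6% of all tested genes were called lower and 29.5% higher. The genes of the RNase P subunits, which make the first cut at the 5′ ends of tRNAs, were HSD17B10 (-0.75, adjusted p = 1.18e-08), PRORP (-0.77, adjusted p = 1.11e-07) and TRMT10C (-0.47, adjusted p = 7.7e-07), and all fell in FAC+BafA1 against FAC too, by 0.20, 0.23 and 0.23 (adjusted p = 0.0053, 0.012 and 0.0026), with the PRORP call lost without FAC+BafA1 replicate 1 or 2 (adjusted p = 0.0541 and 0.0514). With ELAC2, genes for the enzymes that cut both ends of the tRNAs were thus lower with BafA1. Of 17 further RNA turnover and granule genes 6 fell and 2 rose (median -0.11), with C1QBP at -0.64, and with nuclear-only scaling 6 fell and 6 rose. Of 17 further DNA maintenance genes 7 fell and 6 rose (median -0.09), near the shares of all tested genes, with TOP3A, a topoisomerase that separates linked molecules of mitochondrial DNA, at 0.75 (adjusted p = 1.42e-07). This balance turned with the scaling, to 3 lower and 7 higher by the median of ratios and 2 lower and 7 higher on nuclear genes. Of 14 translation factor genes 7 fell and 2 rose (median -0.14), with TUFM, the elongation factor Tu, at -0.50, and with nuclear-only scaling 6 fell and 4 rose.

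Of 6 matrix or inner membrane protease genes 2 rose and 2 fell with BafA1, near the 29.5% of all tested genes called higher and 37.6% called lower. LONP1, a protease known to degrade TFAM, had 79.7, 71.1 and 69.1 FPKM in BafA1, against 45.6, 45.3 and 49.4 FPKM in control (0.64 ± 0.07, adjusted p = 7.74e-06), while CLPP was at -0.26. Among 8 genes for upstream regulators of the nuclear factors 4 rose and 1 fell, or 4 and 2 with quantile normalization. PPRC1, a coactivator related to PGC-1alpha, was at 40.7 ± 1.66 FPKM in BafA1 and 28.5 ± 1.62 FPKM in control (0.50, adjusted p = 1.66e-06), and PPARGC1B, another of that family, was at 3.01 ± 0.0929 FPKM in BafA1 and 5.01 ± 0.280 FPKM in control (-0.58, adjusted p = 4.24e-06). Neither passed in FAC+BafA1 against FAC (PPRC1 0.04, adjusted p = 0.64; PPARGC1B -0.12, adjusted p = 0.19).

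A list of 21 nuclear genes for partner subunits of the same complexes went mostly the other way from the coding genes of mitochondrial DNA. The list does not hold every nuclear subunit and was chosen with earlier results of these data known. Of the 21 listed genes 20 fell with BafA1 and none rose, where 37.6% of all tested genes were called lower. Their median log2 change was -0.41, against 0.40 for the 13 coding genes. ATP5MC1, for the membrane ring of ATP synthase, had 92.7, 92.7 and 90.6 FPKM in BafA1, against 254, 265 and 241 FPKM in control (-1.45 ± 0.04, adjusted p = 8.1e-11), and COX7C, of the same complex as MT-CO2, was at 514 ± 11.5 FPKM in BafA1 and 840.3 ± 50.1 FPKM in control (-0.71, adjusted p = 5.75e-09). In FAC+BafA1 against FAC 12 of the 21 fell and none rose, where 9.49% of all tested genes were called lower, with ATP5MC1 at -0.21 and COX7C at -0.14 (adjusted p = 0.0058 and 0.018). The count was 6 with quantile normalization, and the COX7C call was lost without FAC+BafA1 replicate 1 or 3 or FAC replicate 1 or 2 (adjusted p of 0.0502 to 0.0589). The interaction was positive for 18 of the 21 and negative for none, where 29.5% of all tested genes were called positive, with 1.24 for ATP5MC1 (adjusted p = 3.51e-08).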

How the data were processed

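Per the labels' protocols, RNA of HEK293T cells was made into libraries with a kit for mRNA that keeps strand. The deposited table holds FPKM made by the authors, rounded to 2 decimals, in 12 columns of 3 libraries for each of 4 groups. STAR, RSEM and GRCh38 were used, per the submitters' processing notes. Whether strand was used in counting, any filters, the versions and the annotation release were not given in the sources used here. The table's 56340 entries included 3 repeated IDs at 0, which were dropped.

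Since FPKM are normalized, no count test was applied. The depth estimate used the steps in values under 0.5 FPKM of genes with 1 transcript of 700 to 2000 bases, assuming fragments of 150 bases. Only 51.4% to 55.0% of these values in the libraries without FAC lay within 0.2 of a whole fragment. In the libraries with FAC it was 63.5% to 67.0%, and the cause of that difference was not tested. No counts were recovered. The precision therefore comes from the spread between libraries.

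The scale was log2(FPKM + 1), which understates changes of low genes. The 13682 genes whose mean reached 1 FPKM were fitted in limma 3.58.1 (R 4.3.3) on all 12 libraries, with group means and an intensity trend. Benjamini-Hochberg adjustment was over all genes within each of 6 comparisons, and a gene was called at an adjusted p under 0.05. The fit was tested on simulated data. Folds are ratios of mean FPKM. Shares of FPKM were compared with an exact permutation test. Gene positions are from GENCODE release 44, mitochondrial sequence from the GRCh38 reference and promoters from RefSeq.

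All 34 genes are named. Of other pathway genes, at most 4 called genes per list with the smallest adjusted p in BafA1 against control were open to naming. TOP1MT was named after its values were seen, because its call was often lost. The members and lists were chosen with earlier results of these data known. Alternatives covered the pseudocount, filter, scaling, prior, samples in the fit, replicate block and each library left out. Adding the nuclear copies to MT-ATP6 and MT-ND2 was chosen after seeing the data. The result of 1 further marker list, for blood cells, is not reported here.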

Additional observations from a re-analysis of the deposited data

Results flagged for a closer look

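The interaction in limma is the log2 change in FAC+BafA1 against FAC minus the log2 change in BafA1 against control. It passed (adjusted p under 0.05) for 14 of the 34 genes, where 50.1% of all tested genes passed. These were 2 of the 13 coding genes and 12 of the 21 nuclear factors. It also passed for 2 rRNAs, which are no members of the module. The values were positive for SLIRP (0.70), FASTKD5 (0.38), SSBP1 (0.31), FASTKD1 (0.29), ELAC2 (0.27) and FASTKD2 (0.20), which all fell with BafA1 alone. They were negative for the rRNAs MT-RNR2 (-1.19) and MT-RNR1 (-0.65), for SUPV3L1 (-0.69), LRPPRC (-0.30), TFAM (-0.23) and MGME1 (-0.20), and for the coding genes MT-CO2 (-0.50) and MT-ND3 (-0.32), which all rose with BafA1 alone. TFB2M (-0.25) and GRSF1 (-0.10) were negative too, and did not pass in BafA1 against control. The interaction subtracts the change in BafA1 against control, so a sign opposite to that change is not separate evidence. Some of these calls were lost with 1 library left out: MT-CO2 without any 1 of 8 libraries (adjusted p of 0.0691 to 0.11), MGME1 without FAC+BafA1 replicate 1 or 3, BafA1 replicate 3, FAC replicate 1 or 3 or control replicate 1 or 2 (0.0527 to 0.106), GRSF1 without replicate 2 of any group (0.0528 to 0.0563), and FASTKD1 without FAC+BafA1 replicate 1, BafA1 replicate 2 or FAC replicate 1 (0.0517 to 0.0534). MGME1 also lost its call with the replicate number as a block (0.0616), with no intensity trend (0.0651) and with no filter on low values (0.111), and GRSF1 with no intensity trend (0.073). Groups of 3 libraries are too small for a test of single outlying libraries.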

How the results depend on the processing

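No member reversed its direction past a threshold in any alternative. Of the single-gene results 4230 kept their status as called or not called, 71 passed newly and 153 no longer passed. A change of sign between fits that both did not pass was counted within the 4230. The 8 coding calls of BafA1 against control became 13 with quantile normalization and with nuclear-only scaling, and ranged from 6 to 13 over the fits that left out 1 library. The 6 calls of FAC+BafA1 against FAC, all nuclear factors, became 3 with nuclear-only scaling. The 10 coding calls of FAC+BafA1 against BafA1 became 4 with no filter on low values, and ranged from 4 to 11 with 1 library left out. Those of FAC+BafA1 against control ranged from 0 to 1. The 2 coding interactions became 1 with a pseudocount of 0.1, with no filter, with no intensity trend and with the replicate number as a block, and ranged from 1 to 3 with 1 library left out. The cause of these shifts was not tested. Calls held in every alternative for 6 of 8 coding genes and 11 of 17 nuclear factors in BafA1 against control, and for 2 of 6 (SSBP1 and FASTKD2) in FAC+BafA1 against FAC. Nuclear-only scaling moved the share of higher genes among all calls to 55.0% in place of 44% in BafA1 against control, 63.3% in place of 50.7% in FAC+BafA1 against FAC, 47.1% in place of 57.2% in FAC+BafA1 against BafA1, and 47.4% in place of 58.9% for the interaction. Same-numbered libraries of different groups did not stand out in how they deviated from their group means. Their correlations were -0.0736 to 0.138, against -0.15 to 0.116 for pairs with different numbers. Of 12 libraries 5 correlated best with their own number. These values cannot show whether same-numbered libraries were handled together. With the block, 24 members were called in place of 25 in BafA1 against control and 12 in place of 14 for the interaction. The spread of the coding genes within groups limits what 3 libraries can show, and read counts were not used here.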
